A study of Mus musculus with 8 samples.

Results

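Expression of 6 connexin genes, Gja1, Gja4, Gja5, Gjb1, Gjb2 and Gjc1, was compared between label-retaining and label-free EpCAM+ cells of the mouse liver. They were chosen by symbol as the connexins known from the bile duct, the hepatocyte and the vessel wall, out of 20 connexin genes and 46603 genes in the count table. All 6 were found in the table, and 5 of them were among the 13605 genes with enough reads to be tested; Gjc1 was not.

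The libraries came from 4 mice, JV602, JV621, JV624 and JV6314, each of which gave an LLRC library and a non-LRC library. All mice, and so both groups, were R26rtTA het/H2B-EGFP het on a mixed C57BL/6 and CBA background, drank doxycycline through their mothers from birth to postnatal day 5, and were used at the age of 8 weeks. Doxycycline switches on a histone 2B-EGFP fusion through a transactivator at the ubiquitously active Rosa26 locus, and the green label is diluted at each division. LLRCs (liver label-retaining cells) were sorted as EGFP+EpCAM+CD45- cells and non-LRC cells as EGFP-EpCAM+CD45- cells, so that the sort, not a treatment, separates the groups. Hematopoietic cells of bone marrow and spleen make the fusion without doxycycline, whereas the study saw no EGFP in livers of mice kept without it, and leukocytes were depleted with CD45 beads before the CD45- sort. The comparison asks which connexins of a bile duct cell differ with label retention.

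Connexins are membrane proteins that assemble into hemichannels, and hemichannels of neighbouring cells dock to form gap junctions, through which ions and small messengers pass. Liver cell types differ in the connexins they make. Gja1 encodes Cx43, the main connexin of cholangiocytes, which is also made by stellate, mesothelial and vascular cells. Gjb1 and Gjb2 encode Cx32 and Cx26, the connexins of hepatocytes. Gja4 and Gja5 encode Cx37 and Cx40, which couple endothelial cells, above all in arteries, and Gjc1 encodes Cx45, known from smooth muscle and the heart.

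Gja4 and Gja5 were the members whose libraries separated by group, and the bases upstream of their starts are shown to place the genes and the short motifs searched in them. The windows are the 250 bases before a RefSeq start in GRCm38.p6, given 5′ to 3′ on the strand of the gene, at chr4:127314040-127314289 on the minus strand for Gja4 and chr3:97032152-97032401 on the plus strand for Gja5. Capitals mark any match, on either strand, to the short motif of each of these families of transcription factors: ETS factors, searched as the letters AGGAAG, the family of GATA factors, searched as the letters AGATAA, SOX factors, searched as the letters ATTGT, and the Notch partner RBPJ, searched as the letters TGGGAA.
Gja4: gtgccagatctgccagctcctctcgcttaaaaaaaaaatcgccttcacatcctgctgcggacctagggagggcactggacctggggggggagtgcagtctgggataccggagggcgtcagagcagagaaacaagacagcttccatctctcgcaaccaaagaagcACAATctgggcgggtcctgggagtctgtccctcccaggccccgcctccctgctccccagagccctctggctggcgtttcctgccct
Gja5: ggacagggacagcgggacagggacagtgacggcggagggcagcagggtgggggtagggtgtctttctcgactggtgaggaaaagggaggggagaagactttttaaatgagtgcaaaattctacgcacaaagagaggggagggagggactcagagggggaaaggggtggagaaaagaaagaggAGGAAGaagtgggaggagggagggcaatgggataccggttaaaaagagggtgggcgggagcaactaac
The Gja4 window held a SOX match that began 86 bases before the start, and the Gja5 window an ETS match that began 68 bases before it. Matches of these kinds are common: of 32851 windows of this length, 27.7% held the SOX letters, 29.5% the ETS letters, 21.6% the RBPJ letters and 9.99% the GATA letters. The window of Gja1 held an ETS and a GATA match, that of Gjb2 held none, and 3 of the 4 windows of Gjb1 held a match. No window was matched for Gjc1.

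Expression was read as counts per gene. The LLRC libraries held between 7860021 and 9851819 counts and the non-LRC libraries between 4670132 and 8056103, and levels are given as CPM (counts scaled by TMM, with factors from 0.816 to 1.23, to a common library size). A level of 3 counts, used here as the floor below which a gene is not quantified, lay between 0.289 and 0.623 CPM, and this floor covers counting error only. Spp1, the osteopontin gene of duct cells, took 167400 ± 48480 CPM in LLRCs against 115800 ± 41900 CPM in non-LRC cells (SD, n = 4), and 12 cholangiocyte markers summed to between 113200 and 219500 CPM in LLRC libraries and between 65610 and 161000 CPM in non-LRC libraries, nearly all of it Spp1. Of these 12 markers, 8 had a log2 fold change above 0, with 1 higher and 1 lower in LLRCs at an unadjusted p below 0.05. The lower marker was Aqp1, a water channel gene of duct cells that vessels also express, at 5.85 ± 2.00 CPM in LLRCs beside 98.9 ± 53.9 CPM in non-LRC cells (SD, n = 4), and it was the 1 marker of the list that DESeq2 called. All libraries thus carried the duct cell markers of their label, although hepatocyte and endothelial markers were read as well. Between 4 LLRC and 4 non-LRC libraries, edgeR's quasi-likelihood test called 0 of 13605 genes (0.0%) at an adjusted p below 0.05. At an unadjusted p below 0.05 it found 702 genes (5.16%), 485 of them lower (3.56%) and 217 higher (1.6%) in LLRCs. The number of calls varied with the test, as DESeq2 called 221 genes, edgeR's exact test 159 and limma 0.

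Against this background, none of the 5 connexins tested was called by the quasi-likelihood test. Gja4 and Gja5 had an unadjusted p below 0.05 and were lower in LLRCs, where 3.56% of all genes were. Every LLRC library was below every non-LRC library for the same 2 connexins of 6, as for 1.91% of all genes tested. No connexin showed the opposite, which 2.15% of genes did, so that 4.06% of genes had groups without overlap. Both genes were also lower in the LLRC library of all 4 mice, as 5.53% of genes were, though for Gja5 in JV602 only after TMM scaling. None of the 6 connexins was higher in all 4 (7.74% of genes). The duct connexin Gja1 and the hepatocyte connexins Gjb1 and Gjb2 overlapped between the groups.

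**Figure D1:**
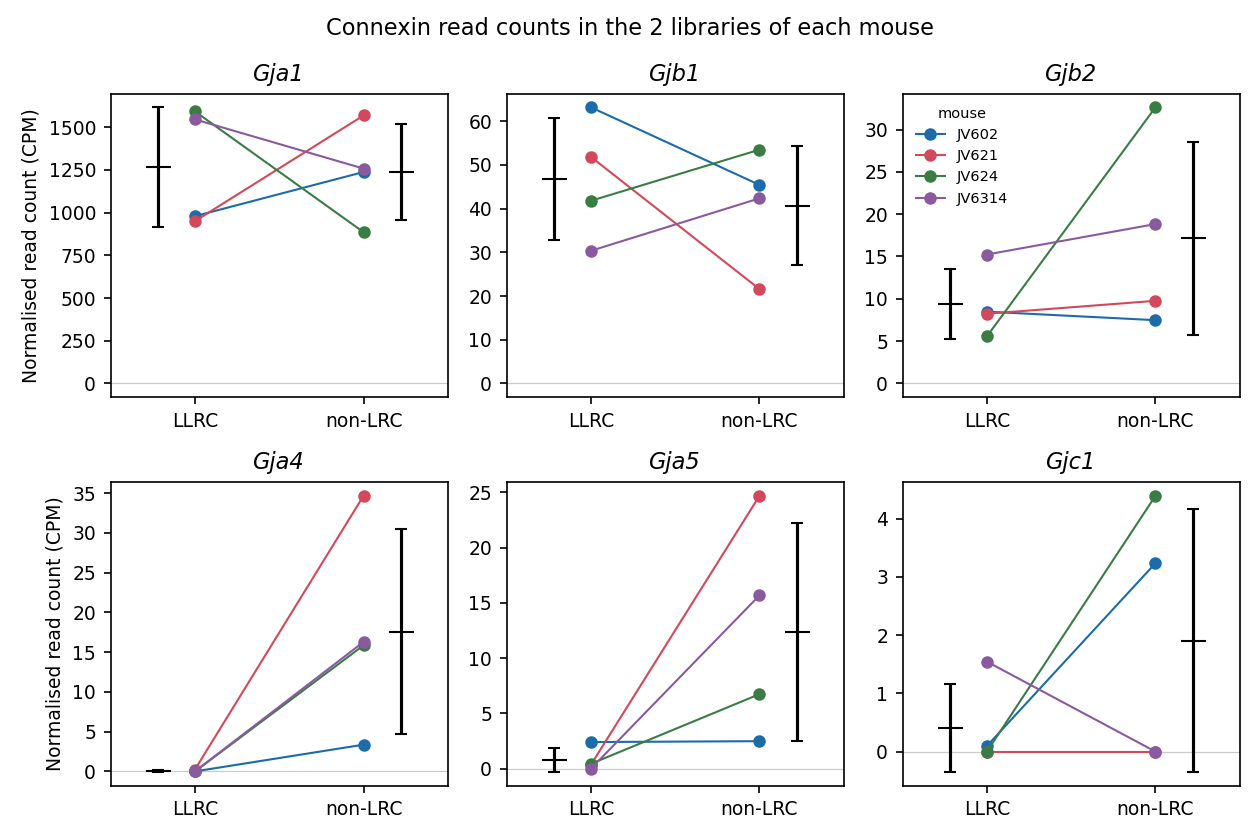
Normalised read count (CPM, linear axes from 0, a scale of its own for each gene) of 6 connexin genes in the LLRC and the non-LRC library of each mouse, with a line joining the 2 libraries of a mouse. Black bars give the mean and SD of 4 libraries. Gja4 stands at or near 0 in all LLRC libraries and between 3.36 and 34.7 CPM in non-LRC libraries, while Gja1 and Gjb1 lines cross.

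Gja1 (ENSMUSG00000050953, chromosome 10, 56377330 to 56402513, plus strand of GRCm38) was the connexin with the highest level per transcript length in both groups. Its levels in LLRCs were 979.3 CPM in JV602, 950.2 CPM in JV621, 1593 CPM in JV624 and 1546 CPM in JV6314, an order of mice that is kept for all values below. In non-LRC cells of the same mice they were 1238, 1569, 885.6 and 1258 CPM. LLRCs were lower in JV602 and JV621 and higher in JV624 and JV6314, so that the groups overlapped over most of their range. The means were 1267 ± 349.8 CPM in LLRCs against 1238 ± 279.5 CPM in non-LRC cells (SD, n = 4). The log2 fold change (LLRC over non-LRC) was 0.03 (SE 0.29; adjusted p = 0.9999 by quasi-likelihood in edgeR), and the exact permutation test gave p = 0.943. Its sign was not stable: the value turned to -0.03 with library size as the only scaling and ran from -0.22 to 0.29 as libraries or mice were left out. In CPM per kilobase of its longest coding transcript, Gja1 ranked 94 of 11413 genes in LLRCs, with rank 92 in non-LRC cells, so that fewer than 1% of genes had a higher level.

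The hepatocyte connexins were read in every library. Gjb1 (chromosome X, 101376378 to 101385629, plus strand), the gene of Cx32, stood at 63.2, 51.8, 41.8 and 30.4 CPM in the 4 LLRC libraries. The non-LRC libraries of these mice held 45.4, 21.6, 53.5 and 42.4 CPM. Gjb1 was thus higher in LLRCs of JV602 and JV621 and lower in those of JV624 and JV6314, the opposite of Gja1 in each mouse. Its log2 fold change was 0.20 (SE 0.37; edgeR adjusted p = 0.9999; exact permutation p = 0.629), and it was -0.05 without JV621.

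Gjb2 (chromosome 14, 57098600 to 57104702, minus strand), the gene of Cx26, was below Gjb1 per kilobase of transcript in all 8 libraries. LLRC libraries held 8.48, 8.23, 5.55 and 15.2 CPM, and non-LRC libraries 7.47, 9.76, 32.6 and 18.8 CPM. LLRCs were the lower library in 3 of 4 mice, yet the groups overlapped, and the non-LRC library of JV624 stood above all others. The log2 fold change was -0.87 (SE 0.56; edgeR adjusted p = 0.9999; exact permutation p = 0.229), and without JV624 it was -0.17.

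Hepatocyte markers also differed between the non-LRC libraries. The summed level of 12 hepatocyte markers, of which Alb (albumin), Ttr (transthyretin) and Fgb (fibrinogen) were the most abundant, was between 2970 and 3269 CPM in LLRC libraries. It was 3003, 2182, 6637 and 4965 CPM in the 4 non-LRC libraries, so that JV624 was highest for the markers, for Gjb1 and for Gjb2, and JV621 lowest for the markers and for Gjb1. The non-LRC library of JV624 was also highest for the summed markers of stellate cells and fibroblasts (2695 CPM) and of mesothelium (923.7 CPM). In LLRCs Gjb1 ranged from 30.4 to 63.2 CPM while the hepatocyte sum kept to the narrow range above. Of the 12 markers, 10 had a log2 fold change below 0 and 6 of these an unadjusted p below 0.05, as had 3.56% of all genes. The median of the 12 was -1.42, beside -0.01 for all genes tested (0 called by quasi-likelihood in edgeR, 1 by DESeq2). Alb itself was at 2322 ± 197.0 CPM in LLRCs against 2305 ± 600.6 CPM in non-LRC cells (SD, n = 4). The part of hepatocyte RNA in the Gjb1 and Gjb2 levels was not tested. As these are bulk libraries, fewer cells of a type and less RNA per cell cannot be told apart.

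Of the vessel connexins, Gja4 (ENSMUSG00000050234, chromosome 4, 127311421 to 127314039, minus strand), the gene of Cx37, showed the wider separation. The LLRC libraries held 0 counts in JV602, 2 in JV621, 0 in JV624 and 0 in JV6314. The non-LRC libraries held 27, 167, 101 and 83 counts, or 3.36, 34.7, 15.8 and 16.3 CPM. All LLRC libraries lay below the floor of 3 counts and all non-LRC libraries well above it, and the groups did not overlap. Against 3 counts in each LLRC library, the mean of 17.5 ± 12.9 CPM in non-LRC cells (SD, n = 4) made Gja4 at least 49.7-fold lower in LLRCs, and at least 33.5-fold lower without JV621. Within mice the bound was 11.6-fold in JV602, 98.3-fold in JV621, 36.1-fold in JV624 and 49.2-fold in JV6314.

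The exact two-sided permutation test of Gja4 gave p = 0.029, the smallest that 4 libraries against 4 allow. By quasi-likelihood in edgeR its unadjusted p was 0.000108 and its p adjusted over all genes was 0.0813, though Gja4 passed the expression filter only through the non-LRC libraries, where it is high. The fitted log2 fold change was -7.87 (SE 1.22), a value that depends on how the fit treats counts of 0. DESeq2, edgeR's exact test and a newer form of the quasi-likelihood dispersion, which called 172 (1.26%), 127 (0.933%) and 61 genes (0.448%) as lower in LLRCs, gave Gja4 an adjusted p of 2.18e-07, 4.90e-07 and 0.043. Gja4 is also on the list of genes that the study selected on these same libraries, so its direction here is not independent evidence.

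Gja5 (ENSMUSG00000057123, chromosome 3, 96904693 to 97077416, plus strand), the gene of Cx40, was lower in LLRCs as well, with 1 mouse that stood apart. Its LLRC counts were 25 in JV602, 3 in JV621, 3 in JV624 and 0 in JV6314, and its non-LRC counts were 20, 119, 43 and 80. In CPM these were 2.41, 0.353, 0.439 and 0 in LLRCs against 2.49, 24.7, 6.75 and 15.7 in non-LRC cells. JV602 thus had nearly the same level in both of its libraries, and the other mice had a wide gap. The groups did not overlap after TMM scaling (exact permutation p = 0.029), but only because 2.41 lay just below 2.49. With library size as the only scaling, LLRCs were the higher library of JV602, the groups overlapped and the exact permutation p was 0.0571.

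The log2 fold change of Gja5 was -3.90 (SE 1.20), with an unadjusted p of 0.00986 by quasi-likelihood in edgeR and an adjusted p of 0.567. It was -5.85 without JV602 and -3.07 without JV621. The mean in LLRCs was 0.80 ± 1.09 CPM (SD, n = 4), and 0.264 CPM without JV602, against 12.4 ± 9.87 CPM in non-LRC cells. DESeq2 gave an adjusted p of 0.0249. Like Gja4, Gja5 passed the expression filter through the non-LRC libraries, where it is high. In LLRCs only the JV602 library held more than the floor of 3 counts, so the low LLRC values are not quantified. Exons of Gja5 share 165 bases, 2.87% of their length, with Gpr89 on the opposite strand, and reads there could not be assigned by counting without strand.

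Gjc1 (chromosome 11, 102799579 to 102819700, minus strand), the gene of Cx45, was read in too few libraries to be compared. Its counts were 1, 0, 0 and 14 in LLRCs against 26, 0, 28 and 0 in non-LRC cells. The mouse with most reads in LLRCs was thus at 0 in non-LRC cells, and JV621 was at 0 in both. Without an expression filter the log2 fold change was -2.14 (SE 1.79; edgeR adjusted p = 0.659), and the exact permutation test gave p = 0.429. The libraries of each group ranged from 0 counts to at least 14, and no difference was detected beyond this spread.

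**Figure D2:**
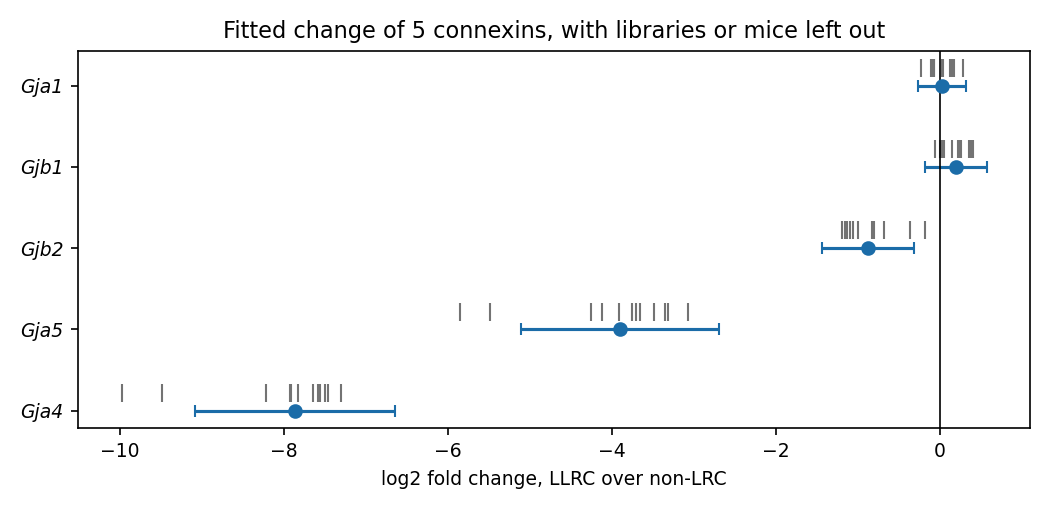
Fitted log2 fold change (LLRC over non-LRC) of the 5 connexins that could be tested; points and blue bars give the value and its standard error in edgeR's quasi-likelihood fit of 8 libraries. Grey ticks give the value with 1 library or 1 mouse left out. Ticks of Gja1 and Gjb1 lie on both sides of 0, those of Gjb2, Gja5 and Gja4 on the negative side, and the Gja4 ticks run from -9.98 to -7.30.

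In non-LRC cells the levels of Gja4 and Gja5 went with those of endothelial markers. The summed level of 12 pan-endothelial markers was between 29.5 and 62.9 CPM in LLRC libraries and 212, 952, 490 and 733 CPM in the 4 non-LRC libraries. Ranked by level, the 4 non-LRC libraries stood in the same order for the markers, for Gja4 and for Gja5, with JV602 lowest and JV621 highest. Among LLRC libraries this did not hold for Gja5, since JV602 had the highest Gja5 level, 2.41 CPM, and the lowest marker sum, 29.5 CPM. None of the 12 markers was at 0 in all LLRC libraries. All 10 markers that could be tested were lower in LLRCs at an unadjusted p below 0.05, where 3.56% of all genes were (0 at an adjusted p below 0.05 in edgeR's quasi-likelihood test). Their median log2 fold change was -3.73, beside -0.01 for all genes tested. Markers with few LLRC reads passed the expression filter through the non-LRC libraries where they are high, which favours this direction among those tested. At an adjusted p below 0.05 DESeq2 and edgeR's exact test each called 9 of them, the newer form of the dispersion 5 and limma 0. The most abundant were Ptprb (16.7 against 227.1 CPM), an endothelial phosphatase, and the receptor genes Kdr (5.36 against 73.9 CPM) and Tek (4.62 against 60.0 CPM). Some of these markers, Tek among them, are on the list that the study selected on these libraries.

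Markers of hepatic sinusoids went the same way. The 8 sinusoidal markers were led by the mannose receptor gene Mrc1, Oit3 and the Fc receptor gene Fcgr2b. They summed to between 23.3 and 36.5 CPM in LLRCs against between 166.3 and 758.4 CPM in non-LRC cells. All 7 that could be tested were lower at an unadjusted p below 0.05, where 3.56% of all genes were. Of these 7, 0 were called by quasi-likelihood and 7 by DESeq2, which called 1.26% of all genes as lower. Here too, markers with few LLRC reads passed the expression filter through the non-LRC libraries where they are high. The sum of 9 arterial markers overlapped between the groups, at 451.6 to 2855 CPM against 528.0 to 1588 CPM. Most of that sum was Jag1, a Notch ligand that duct cells make too, and 4 of the 6 arterial markers tested had a log2 fold change below 0, with 1 of them at an unadjusted p below 0.05. The 4 venous markers, mostly Nr2f2, summed to between 344.1 and 694.3 CPM in LLRCs against between 614.8 and 1219 CPM in non-LRC cells. Of these 4, 2 were lower at an unadjusted p below 0.05, again beside 3.56% of all genes. By quasi-likelihood 0 markers of both lists were called, and DESeq2 called 0 of 6 arterial and 1 of 4 venous markers.

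To set the vessel connexins beside the endothelial RNA of the same library, their counts were divided by the counts of the 12 endothelial markers, a measure chosen after seeing the data and tested on its linear scale. Gja4 came to 0, 3.74, 0 and 0 per 1000 marker counts in LLRCs, and to 15.9, 36.4, 32.4 and 22.2 in non-LRC cells. The groups did not overlap (means of 0.935 and 26.7, exact permutation p = 0.029), with 2 Gja4 counts beside 1628 marker counts in all LLRC libraries and 378 beside 13147 in all non-LRC libraries. The 3-count floor stood between 5.61 and 9.80 per 1000 in LLRCs, below the lowest non-LRC value. Per 1000 sinusoidal marker counts the means of Gja4 were 1.71 and 41.3 (exact permutation p = 0.029).

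Gja5 gave another picture on this scale. Its values were 81.7, 5.61, 7.16 and 0 per 1000 endothelial marker counts in LLRCs against 11.8, 25.9, 13.8 and 21.4 in non-LRC cells. The LLRC library of JV602 was the highest of all 8 and the other 3 LLRC libraries the lowest. The means were 23.6 ± 38.8 and 18.2 ± 6.61 (SD, n = 4), a difference that rests on JV602, and without that mouse they were 4.26 and 20.4. The LLRC libraries behind the 4.26 all stood at or under the 3-count floor, so that mean is not a quantified level. How far endothelial RNA in the sorted fractions accounts for the levels of Gja4 and Gja5 was not tested beyond these ratios.

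**Figure D3:**
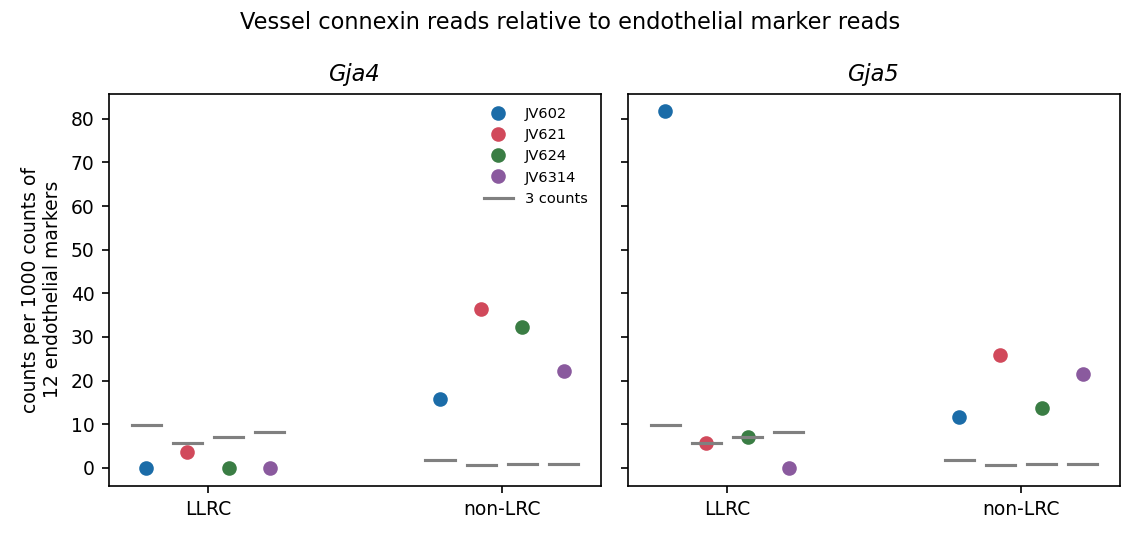
Counts of Gja4 and Gja5 per 1000 counts of 12 endothelial markers in each library, by group and mouse (linear axis), with a grey line at what 3 counts would give in that library. For Gja4 the LLRC values are at most 3.74 and the non-LRC values at least 15.9, while for Gja5 the LLRC library of JV602 stands at 81.7, above all others.

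Compared per length, the connexins of the sorted cells had a steep order. In LLRCs the mean level was 398.2 ± 109.9 CPM per kilobase of the longest coding transcript for Gja1, 29.5 ± 8.85 for Gjb1 and 3.90 ± 1.71 for Gjb2 (SD, n = 4). Gja5, Gjc1 and Gja4 followed at 0.218, 0.177 and 0.0349 CPM per kilobase. The ranges of the first 3 did not overlap with that of the next gene in the order, whereas those of the last 3 overlapped. In non-LRC cells the order was Gja1 (389.0 ± 87.9), Gjb1 (25.7 ± 8.58), Gja4 (10.4 ± 7.65), Gjb2 (7.14 ± 4.74), Gja5 (3.38 ± 2.69) and Gjc1 (0.824 ± 0.973). There only Gja1 was clear of its neighbour, and each later gene overlapped with the next. The order was the same in both groups when all annotated exons were used as the length.

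As a share of the summed level of all 6 genes per kilobase, Gja1 made up 87.5% to 94.9% in LLRC libraries and 82.2% to 91.6% in non-LRC libraries. These shares depend on the length taken for Gja1, and with all annotated exons they were 70.0% to 86.1% and 60.5% to 78.6%. The total over the 6 genes did not differ beyond its spread (432.0 ± 102.8 and 436.4 ± 81.8 CPM per kilobase, SD, n = 4; exact permutation p = 0.83). Nor did the sum of Gjb1 and Gjb2, at 33.4 ± 8.01 and 32.8 ± 12.2 (exact permutation p = 0.857). The sum of Gja4 and Gja5 was 0.253 ± 0.286 in LLRCs against 13.8 ± 10.2 in non-LRC cells, a separation that follows from those of the single genes, and the LLRC mean was 0.118 without JV602. Gja1 stood 15.3 ± 8.38 times above Gjb1 in LLRCs against 18.2 ± 12.3 times in non-LRC cells, and with all annotated exons as the length these folds were 5.11 and 6.08. Gjb1 stood 8.83 ± 3.96 times above Gjb2 in LLRCs against 4.62 ± 3.10 times in non-LRC cells, a difference within the spread (exact permutation p = 0.171).

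**Figure D4:**
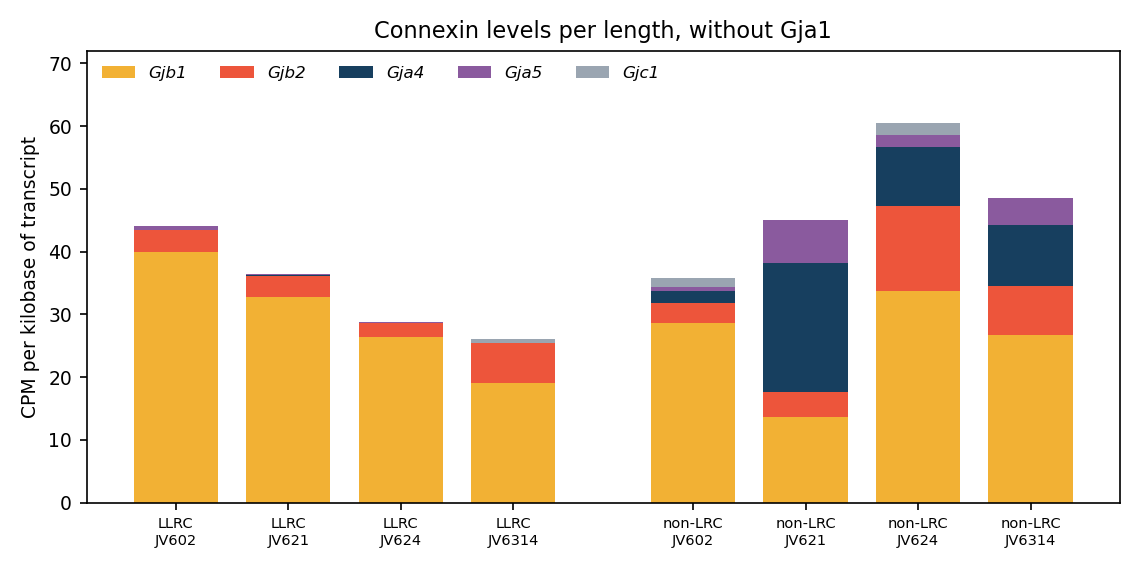
Level of 5 connexins in each library in CPM per kilobase of the longest coding transcript, stacked; Gja1 is left out, as it lies between 278.3 and 500.6 on this scale. Gjb1 is the largest block in 7 of 8 libraries, and Gja4 and Gja5 together come to at most 0.657 in LLRC libraries and to between 2.67 and 27.3 in non-LRC libraries.

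The other 14 connexin genes were scarcely read and none passed the filter. Of these, 7 genes were at 0 counts in all 8 libraries. Gjb5 had 5 counts in the LLRC library of JV602, and 32 and 4 counts in non-LRC cells of JV624 and JV6314. Of the 3 pannexins, a separate family of channel proteins, Panx1 was tested. Its counts were 73, 27, 52 and 29 in LLRCs against 57, 85, 63 and 0 in non-LRC cells, with a log2 fold change of -0.72 (SE 1.06; edgeR adjusted p = 0.9999). Panx2 had between 2 and 4 counts in each LLRC library, and 0, 0, 11 and 7 counts among the non-LRC libraries.

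Genes whose proteins bind connexins, or carry, anchor or degrade them, were read in both groups. All 20 on the list were tested, 11 with a log2 fold change below 0 and 9 above. None had an unadjusted p below 0.05, beside 5.16% of all genes, 0 were called by DESeq2, edgeR's exact test or limma, and their median was -0.09. The extremes were -0.73 for Tsg101, which sorts membrane proteins for degradation, and 0.85 for Tjp3, a junctional scaffold. The Tsg101 value rested on the non-LRC library of JV621, at 383.3 CPM beside 75.5 to 84.4 CPM in the other non-LRC libraries, and it was 0.24 without that library (chosen after seeing the data). Tjp3 lay between 0.47 and 1.83 with a non-LRC library left out. Cdh1, the gene of E-cadherin, whose adhesion precedes gap junction assembly, stood at 786.6 ± 27.9 CPM in LLRCs against 647.8 ± 300.7 CPM in non-LRC cells (SD, n = 4). Ctnnb1, the gene of its partner beta-catenin, stood at 628.0 ± 95.8 and 668.2 ± 442.4 CPM, and Cav1, the gene of caveolin, at 631.6 ± 140.6 and 671.0 ± 179.9 CPM. Nedd4, a ubiquitin ligase that acts on Cx43, was at 369.6 ± 16.8 and 458.3 ± 220.1 CPM, and the membrane linker gene Ezr at 135.4 ± 27.2 and 127.4 ± 33.2 CPM. For Cdh1, Ctnnb1 and Nedd4 the spread was wider among non-LRC libraries than among LLRC libraries.

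Genes with the profile most like each connexin were listed by Pearson's r of log2(CPM + 1) over the 8 libraries, among 10464 genes with a mean of at least 5 CPM. The points share library depth, composition and mouse, and the genes were picked for their r, so the values only describe these libraries. Closest to Gja4 were Egfl7 (r = 0.987), which endothelial cells secrete, Ehd3 (0.987), a membrane traffic gene, and the water channel gene Aqp1 (0.984). Ehd3 stood at 18.4 CPM in LLRCs against 252.8 CPM in non-LRC cells, and Aqp1 at 5.85 and 98.9 CPM. Closest to Gja5 were Bmp2 (0.966), a growth factor gene, Ackr1 (0.964), a chemokine-binding receptor gene, and Hspg2 (0.959), the gene of perlecan in basement membranes. Those of Gja1 included Tbl1xr1 (0.977), at 67.8 and 63.2 CPM, and Pan3 (0.969), at 205.2 and 197.5 CPM. Gjb1 ran with Phrf1 (0.965) and Gpr108 (0.963), and Gjb2 with the peroxiredoxin gene Prdx1 (0.951), Ltbp1 (0.947) and the noncoding gene Gm26809 (0.941).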

How the data were processed

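RNA-seq of 8 libraries was used. Alignment was done for the authors by a facility, with an aligner not given in the sources used here. The authors then made raw counts per gene with HTSeq in union mode, without strand, on Ensembl exons of GRCm38.p4. They deposited these counts, not normalized, for 46603 rows. A deposited table of the authors' own comparison, with fold changes and p-values, was not used. Genes were filtered with filterByExpr, scaled by TMM and tested with edgeR 4.0.16 (quasi-likelihood, no term but the group, Benjamini-Hochberg adjustment, threshold 0.05) in R 4.3.3. DESeq2 1.42.0 and limma 3.58.1 gave alternatives. Single values were compared with exact two-sided permutation tests of log2(CPM + 1), sums and ratios per kilobase on the log2 scale, and counts per 1000 marker counts on the linear scale; 4 libraries against 4 allow 70 splits. CPM used TMM-scaled library sizes, and lengths came from GENCODE M21. The fits were tested on simulated data. The tests measure the spread between animals, with 1 library per animal and group.

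Both libraries of a mouse were sorted from 1 liver, so mouse numbers pair the libraries. Over genes, the correlation of their deviations from the group means was 0.0961 in JV602, 0.0737 in JV621, 0.00334 in JV624 and 0.171 in JV6314. The members, gene lists and tests were chosen with earlier results of these data known. Named were the 6 members, other connexins and pannexins with at least 10 counts in a library, the 6 connexin partners of highest mean CPM and the list's extremes, the 3 genes most like each member, and up to 3 markers of each list by mean CPM. Some genes that this rule names are not reported here.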

Additional observations from a re-analysis of the deposited data

Results flagged for a closer look

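In 12 groups of 4 libraries, 2 had a library farther from the others than Dixon's 95% limit allows. Chance flags about 1 in 20 groups of continuous values, a rate that does not hold where the other libraries are tied at or near 0. The LLRC library of JV621 stood at 0.235 CPM of Gja4, from 2 counts, while the other LLRC libraries held 0 counts, so that any read would have been marked, and the value lies below the floor of 3 counts. The LLRC library of JV6314 stood at 1.54 CPM of Gjc1, from 14 counts, while the other LLRC libraries held 1, 0 and 0 counts and the non-LRC library of the same mouse held 0.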

How the results depend on the processing

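The number of genes called between LLRCs and non-LRC cells was 0 by quasi-likelihood in edgeR, 11 with no expression filter (1 higher and 10 lower), 221 with DESeq2, 159 with edgeR's exact test, 127 with that test and no filter, and 73 with the newer form of the dispersion. It stayed at 0 with limma, another filter and 3 other scalings, and lay between 0 and 6 as libraries or mice were left out, with 6 without the non-LRC library of JV602. Gja4 passed the threshold in 4 of 23 alternatives, with log2 fold changes of -8.28 (DESeq2), -7.87 (edgeR's exact test), -7.83 (that test without a filter) and -7.85 (newer dispersion), and its adjusted p reached 0.487 in the others. Gja5 passed with DESeq2 alone, at -4.01. The log2 fold change of Gja1 turned to -0.0281 with library size only and to -0.0135 with DESeq2 and with its size factors, and its exact test difference turned to -0.0433 with library size only. For Gja5 that difference was -2.69 at an exact permutation p of 0.0571 with library size only. With libraries or mice left out, the fitted values ran from -0.22 to 0.29 for Gja1, -9.98 to -7.30 for Gja4, -5.85 to -3.07 for Gja5, -0.0548 (without JV621) to 0.41 for Gjb1 and -1.20 to -0.17 for Gjb2. The cause of these changes was not tested. Gja5 per 1000 endothelial marker counts, LLRC minus non-LRC, was 5.40 and ran from -16.12 (without JV602, whose library held 25 of the 31 LLRC counts) to 14.33 as mice were left out.

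With the mouse as a replicate block, 0 genes were called (569 at an unadjusted p below 0.05), and the log2 fold changes were 0.02 for Gja1, -8.11 for Gja4 (adjusted p = 0.194 in the edgeR fit), -4.56 for Gja5, 0.22 for Gjb1 and -0.68 for Gjb2. The pairing changed no call of the quasi-likelihood test, the one test refitted with the block. The exact permutation tests are unpaired, and 4 pairs would allow no two-sided p below 0.125. Under the scalings the median log2 fold change of all genes lay between -0.083 and 0.0053. Depth limits the value of Gja4 in LLRCs, where it lay under 3 counts in each library.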

Other observations

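Marker lists of further cell types were also read. The 9 markers of mural cells summed to between 2188 and 9192 CPM in LLRC libraries and between 2805 and 6770 CPM in non-LRC libraries, nearly all of it Rgs5. The sum thus does not describe the other mural markers. Tagln, the other one tested, had a mean of 1.17 CPM in LLRCs against 12.7 CPM in non-LRC cells. The 9 markers of stellate cells and portal fibroblasts, mostly Dcn and Reln, summed to between 268.0 and 863.8 CPM and between 683.8 and 2695 CPM, with the 5 mesothelial markers at 286.8 to 503.0 CPM and 273.7 to 923.7 CPM. The 12 pancreatic acinar markers lay between 1.88 and 22.8 CPM in 7 libraries and at 1173 CPM in the non-LRC library of JV6314. The 10 hematopoietic markers lay between 15.8 and 109.2 CPM in LLRCs and between 21.8 and 589.0 CPM in non-LRC cells, where S100a8 in JV621 made the highest sum. In these lists edgeR's quasi-likelihood test called 0 genes at an adjusted p below 0.05. At an unadjusted p below 0.05, 1 of 2 mural, 3 of 5 stellate and fibroblast, 1 of 5 mesothelial and 1 of 1 acinar markers tested were lower in LLRCs (3.56% of all genes were). Of 3 hematopoietic markers tested, 1 was higher (1.6% of all genes were). The latter, named after its values were seen, was Ptprc, the gene of CD45, at 3.26 ± 2.60 CPM in LLRCs beside 0.343 ± 0.686 CPM in non-LRC cells (SD, n = 4). It was higher in the LLRC library of all 4 mice, as 7.74% of genes were. The other 2 hematopoietic markers tested, Csf1r and Itgam, had log2 fold changes below 0 (-0.16 and -0.36). DESeq2 called 2 of the stellate and fibroblast markers as lower and 0 in the other lists.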
